A study of Mus musculus with 2 samples.

Results

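In chromatin from mouse neural progenitor cells, 376 of the 3412 peaks called for the DNA-binding profile of Tet3 were narrow peaks lying close to another Tet3 peak. A peak belonged to this set when it was 1000 bp wide or less, lay on a chromosome other than 7, and had a gap of at most 10 kb to the previous or next Tet3 peak, measured from the end of one to the start of the other. Of the 2284 Tet3 peaks that met the limits on width and chromosome, these 376 made up 16.5% (exact 95% binomial interval 14.96 to 18.05). The other 1908 had no neighbour within 10 kb and are called isolated peaks here. The set was chosen by the deposited positions and widths of the peaks, so gap lengths up to the limit and the narrow widths describe it and support nothing further.

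Tet3 is one of the TET dioxygenases, enzymes that oxidise methylated cytosine as a step towards removing DNA methylation. Its full-length form carries a CXXC domain, a zinc-binding fold that recognises CpG-rich DNA. A peak caller scans the genome for windows with more reads than a background and reports windows that do not touch as separate peaks. Nearby peaks can thus stand for separate places of enrichment or for one stretch reported in parts.

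The study made 1 Tet3 ChIP-seq library (anti-Tet3 antibody) and 1 Input library (no antibody) from ES-derived neural progenitor cells of C57BL/6 background, without a named genetic alteration or treatment. Both peak lists are on the mm9 build, with 3412 Tet3 and 347 Input peaks. Peak lists carry no expression values, so the cell type was not checked against its markers. Total reads are not given in the lists, so depth is unknown. With 1 library a group there was no replicate error and no test between libraries. All intervals below are 95% intervals that cover counting over peaks only, and they treat neighbouring peaks as independent, which they are not.

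The gaps were concentrated at very short lengths. Of the 376 closely spaced peaks, 232 had their nearest neighbour within 1 kb, a share of 61.7% (exact interval 56.6 to 66.6), and 144 between 1 and 10 kb. The median gap was 420 bp (336 to 545), with quartiles of 137 and 3626 bp. Counted once for each neighbouring pair rather than for each peak, the 248 gaps had a median of 551 bp (400 to 1134), and 139 of them were 1 kb or less. The number of peaks fell from 232 in the first kb to 24 in the second, and then stayed between 10 and 19 in each further kb up to the limit. Beyond the limit the isolated peaks continued this low level, with 10.8 peaks per kb of gap from 10 to 20 kb and 7.20 from 20 to 50 kb. The limit of 10 kb therefore lay in the shallow part of the distribution, and the steep change lay within the first kb.

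**Figure D1:**
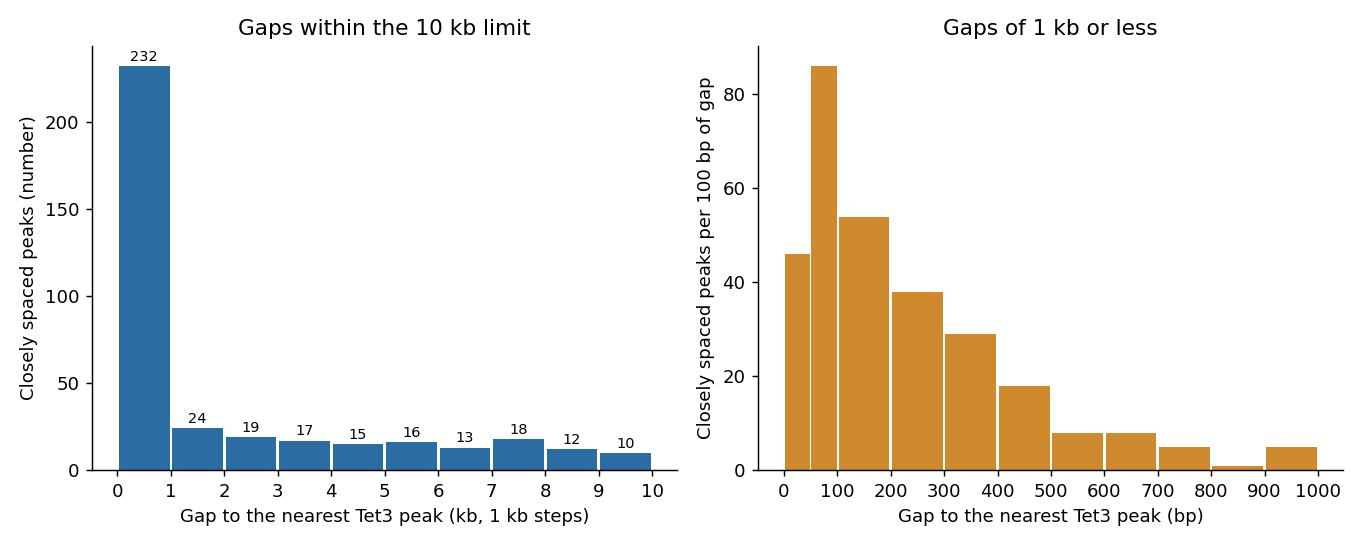
Number of closely spaced Tet3 peaks by the gap to the nearest Tet3 peak, in 1 kb steps up to 10 kb (left) and, for gaps of 1 kb or less, per 100 bp of gap (right, first steps 50 bp wide). The first kb holds 232 peaks and the following steps 10 to 24, and within the first kb most gaps are shorter than 500 bp.

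Within the first kb, most gaps were far shorter than the peaks they separated. Gaps of 50 bp or less separated 23 peaks from their neighbour, 43 peaks had gaps above 50 and up to 100 bp, and 54 had gaps above 100 and up to 200 bp. The count then fell to 38, 29 and 18 in the next steps of 100 bp, and to 8 or fewer in each later step up to 1 kb. No neighbouring peaks of the list overlapped.

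In the 5 pairs with the shortest gaps in which both peaks were narrow, the peaks nearly touched. The shortest gap, 10 bp, lay on chromosome 10 between peaks at 81776433 to 81777251 (width 819 bp, score 50.86) and 81777262 to 81778002 (741 bp, 51.92). The score is the peak's own value from the authors' caller, used here only to rank and describe peaks of one list. On chromosome 8 a gap of 13 bp separated peaks at 111422596 to 111423276 (681 bp, score 89.08) and 111423290 to 111423986 (697 bp, 90.63). In both of these pairs the partners were alike in width and score. On chromosome 4, peaks at 124562285 to 124563206 (score 60.29) and 124563229 to 124564104 (50.4) were 22 bp apart, and peaks at 138616818 to 138617535 (62.61) and 138617560 to 138618030 (52.71) were 24 bp apart. On chromosome 9 a gap of 23 bp lay between 73957447 to 73958042 (score 57.87) and 73958066 to 73958752 (65.78). Together with its gap, each of these 5 pairs spanned 1213 to 1820 bp.

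**Figure D2:**
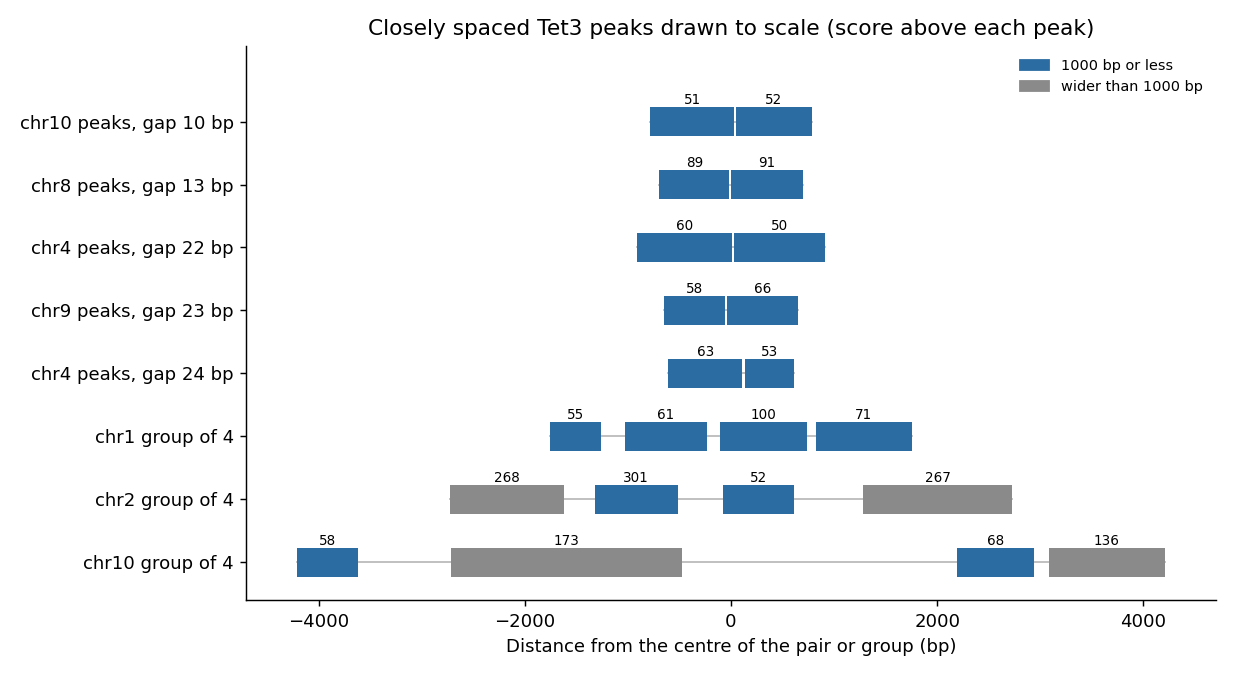
The 5 pairs with the shortest gaps and 3 groups of 4 peaks, drawn to scale against the distance in bp from the centre of the pair or group, with each peak's score above it. Blue peaks are 1000 bp wide or less, grey ones are wider, and gaps of 10 to 24 bp are barely visible beside peaks of 471 to 922 bp.

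Most closely spaced peaks, 297 of 376, belonged to groups of exactly 2 peaks joined within 10 kb. Of 177 such groups, 120 held 2 narrow peaks and 57 held a narrow and a broad one. The 79 pairs of narrow peaks with a gap of 1 kb or less had a median outer span of 1558 bp (1479 to 1632) and a range of 1082 to 2254 bp, and the 41 with a longer gap one of 6535 bp (4979 to 8085). Isolated peaks wider than 1000 bp on the same chromosomes numbered 675 and had a median width of 1336 bp (1307 to 1361; quartiles 1153 and 1515). The limits on width and gap largely set these spans, so they describe the pairs and are no comparison with broad peaks. The distance between the midpoints of the 2 peaks in the 79 pairs had a median of 873 bp (793 to 927).

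Joining peaks across short gaps changed the width profile of the list. Off chromosome 7, 812 of 3096 peaks were wider than 1000 bp, or 26.2% (exact interval 24.7 to 27.8). After joining peaks up to 100 bp apart, 3054 regions remained, of which 27.4% (25.8 to 29.0) were wider than 1000 bp. After joining across gaps of up to 1 kb, 2945 regions remained and 893 of them, 30.3% (28.7 to 32.0), were wider. Joining up to 2 kb added little, with 2923 regions and 30.6% (29.0 to 32.3). Joining up to 10 kb gave 2812 regions and 32.1% (30.4 to 33.9). Between no joining and 2 kb, most of the gain in broad regions was thus reached by 1 kb. All 120 pairs of 2 narrow peaks spanned more than 1000 bp with their gap. The gain therefore follows from the widths and gap lengths already described and adds no separate result.

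The share of narrow peaks with a broad partner depended on how groups were counted. The nearest partner was wider than 1000 bp for 81 of the 376 peaks, or 21.5% (exact interval 17.5 to 26.0), below the 26.2% of broad peaks in the list off chromosome 7. With only the highest-scoring narrow peak of each of the 212 groups counted, the share was 34.9% (28.5 to 41.7). That count takes a pair of 2 narrow peaks as 1 and leaves a mixed pair at 1, which raises the share by construction. It is a share of groups and cannot be set against the 26.2% of peaks. Broad peaks themselves had a neighbour within 10 kb in 137 of 812 cases, or 16.9% (14.4 to 19.6), beside 16.5% of narrow ones. The last 2 shares were close, with overlapping intervals. The median partner was 725 bp wide (700 to 752) and partners ranged from 352 to 2613 bp.

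Partner width differed with the gap. Among peaks with a gap of 1 kb or less, 38 of 232 had a broad partner, 16.4% (exact interval 11.9 to 21.8), and among those with a longer gap 43 of 144 did, 29.9% (22.5 to 38.0). Seen from the other side, 46.9% (35.7 to 58.3) of the 81 peaks with a broad partner lay within 1 kb of it, against 65.8% (60.04 to 71.2) of the 295 with a narrow partner. A narrow neighbour at very short distance was therefore the most frequent arrangement. The division at 1 kb was chosen after the gap lengths had been seen.

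The 3 peaks with the widest partners lay beside strongly scoring broad peaks. On chromosome 8 the peak at 96481903 to 96482755 (853 bp, score 175.05) lay 3750 bp from one of 2613 bp at 96475540 to 96478152 (score 123.85). On the same chromosome the peak at 3598439 to 3599128 (690 bp, score 54.8) lay 5253 bp from one of 2314 bp at 3604382 to 3606695 (190.44). On chromosome 10 the peak at 80247739 to 80248327 (589 bp, score 57.73) lay 902 bp from one of 2239 bp at 80249230 to 80251468 (173.12). In the last 2 cases the narrow peak scored far below its partner, and in the first case above it.

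In width and score, closely spaced peaks were near isolated ones. Their median width was 682 bp (666 to 701) against 648 bp (635 to 657) for isolated peaks, and both sets reached up to the same limit. The lowest share of closely spaced peaks was found among the narrowest. Of the 317 peaks of 500 bp or less, 9.46% (exact interval 6.48 to 13.2) had a neighbour, against 17.0% (14.0 to 20.4) of those above 500 and up to 600 bp and 18.9% (14.6 to 23.8) of those above 800 and up to 900 bp. From 500 bp upwards the shares were 16.6 to 18.9% in every step of 100 bp, with overlapping intervals.

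Scores of closely spaced peaks ran from 50.04 to 300.57, with a median of 63.4 (61.4 to 64.9). Isolated peaks ran from 50 to 204.63, with a median of 60.7 (59.7 to 61.7). Peaks with a gap of 1 kb or less had a median of 64.7 (62.3 to 67.1) and those with a longer gap one of 60.5 (58.6 to 63.6), so the small excess was in the first of these. A score above 100 was reached by 23 of 232 peaks with a short gap, 9.91% (exact interval 6.39 to 14.5), by 6 of 144 with a longer gap, 4.17% (1.54 to 8.85), and by 108 of 1908 isolated peaks, 5.66% (4.67 to 6.79). These intervals overlapped.

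The difference in score was small beside the range of scores, and it was not seen when only longer gaps or only higher scores were used. Peaks with a gap over 1 kb had a median of 60.5 against 60.7 in isolated ones. Among peaks with a score of at least 60, closely spaced peaks had a median of 72.4 (70.5 to 77.3) and isolated ones of 73.3 (71.4 to 74.5). Neighbours were sought among these alone, so a peak whose only close neighbour scored lower counted as isolated. In both comparisons the intervals overlapped. Within width steps the medians were 59.2 (57.3 to 62.5) against 55.7 (54.7 to 57.3) above 500 and up to 600 bp, and 59.2 (56.9 to 63.6) against 60.5 (59.2 to 62.8) above 600 and up to 700 bp. The median of closely spaced peaks was the higher one in 5 of the 6 width steps, the exception being the second of these, and on 11 of the 13 autosomes with at least 15 such peaks. The medians were nearly equal above 800 and up to 900 bp (70.85 against 70.61) and above 900 bp (71.39 against 71.26). In every step other than that above 500 and up to 600 bp the intervals clearly overlapped. In the 25% of eligible peaks with the highest scores, 18.6% (exact interval 15.5 to 22.0) were closely spaced, and in the 25% with the lowest scores 15.4% (12.5 to 18.6).

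The 10 highest-scoring closely spaced peaks included 7 with a gap of 305 bp or less. The top one lay on chromosome 2 at 98503624 to 98504422 (799 bp, score 300.57), in a group of 4 described further on. After the chromosome 8 peak beside the widest partner came another on chromosome 8, at 9550478 to 9551272 (795 bp, score 148.67), 184 bp from a peak of 516 bp with a score of 64.72. On chromosome 11 the peak at 67594623 to 67595575 (953 bp, score 146.77) lay 76 bp from a peak of 1082 bp scoring 116.1. High scores thus occurred beside both weak and strong partners.

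On chromosome 12 the peak at 36625682 to 36626587 (906 bp, score 141.77) lay 222 bp from one of 577 bp scoring 59.4, and the peak at 103808380 to 103809312 (933 bp, 125.35) lay 25 bp from one of 600 bp scoring 50.21. On chromosome 4 the peak at 140329244 to 140329982 (739 bp, score 136.13) had a neighbour of nearly equal width, 735 bp, with a score of 61.37 at a gap of 212 bp. On chromosome 1 the peak at 89023434 to 89024243 (810 bp, 124.14) lay 249 bp from one of 573 bp scoring 75.74. In each of these 4 pairs the neighbour had a much lower score. Longer gaps were seen at 35659485 to 35660319 on chromosome 16 (835 bp, score 131.8, gap 7091 bp to a peak scoring 91.16) and at 15519477 to 15520292 on chromosome 8 (816 bp, 125.54, gap 4426 bp to a peak scoring 58.04).

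Widths and scores of neighbours were nearly uncorrelated, apart from the scores of pairs with longer gaps. Over the 120 pairs of 2 narrow peaks, the Spearman correlation between the first and the second peak along the chromosome was -0.08 for width and 0.05 for score. In the 79 pairs with a gap of 1 kb or less it was -0.12 for width and -0.06 for score, and in the 41 with a longer gap -0.02 and 0.30. These are descriptions over pairs of 1 library whose widths and scores were limited by the rule and by the caller's threshold. The median difference between partners was 137 bp (99 to 183) in width and 13.8 (10.1 to 16.9) in score.

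Neither side of a pair scored higher more often. The peak with the lower coordinate scored higher in 60 of 120 pairs, or 50% (exact interval 40.7 to 59.3). The wider peak of a pair was also the higher-scoring one in 74 of 120 pairs, 61.7% (52.4 to 70.4). Width and score had a Spearman correlation of 0.31 across the closely spaced peaks and of 0.35 across the isolated ones. Gap length was nearly unrelated to either, with 0.00 against width and -0.11 against score.

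**Figure D3:**
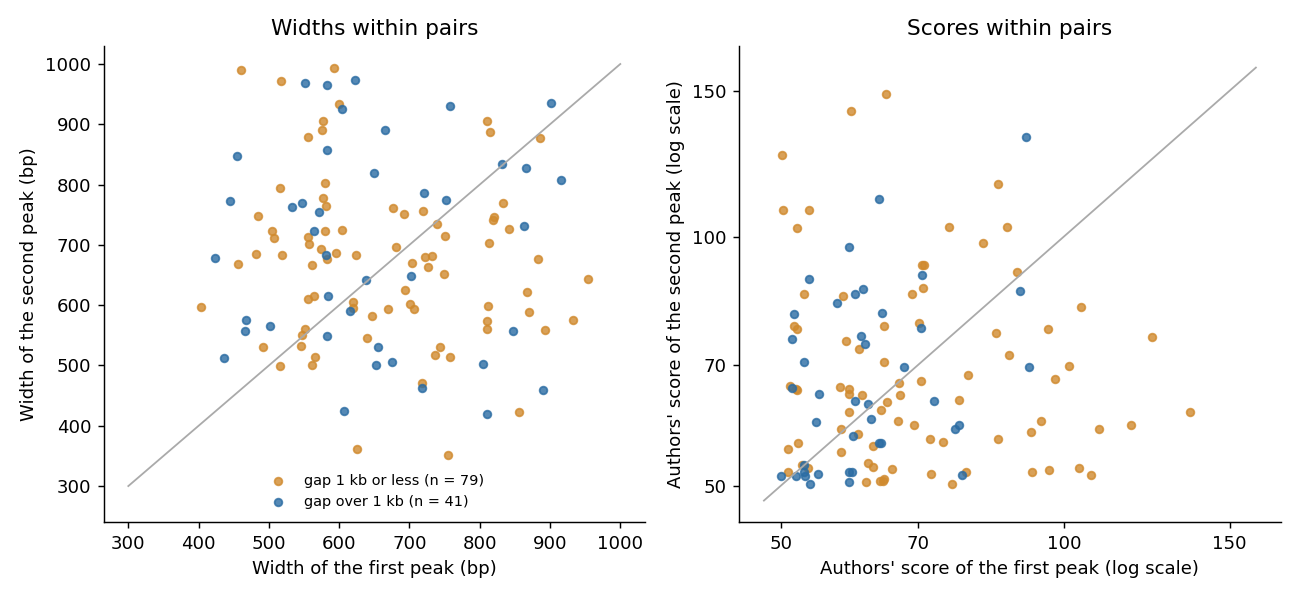
Width in bp (left) and the authors' score on log axes (right) of the second peak along the chromosome against the first, for 120 pairs of narrow Tet3 peaks, with a grey line of equality. Points lie widely on both sides of the line, and pairs with gaps of 1 kb or less (orange, n = 79) and longer gaps (blue, n = 41) overlap.

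Larger groups were few. Of 212 groups that held a closely spaced narrow peak, 26 had 3 peaks, 8 had 4 and 1 had 6. The group of 6 lay on chromosome 8 at 73359310 to 73393179, over 33.9 kb, and only 1 of its peaks was narrow, at 73386268 to 73386864 (597 bp, score 57.79). The other 5 were 1286 to 2450 bp wide. The second group by number of peaks and score was the one on chromosome 2, at 98502217 to 98507665. It held 2 narrow peaks, of 799 bp (score 300.57) and 686 bp (51.64), between 2 broad ones scoring 268.33 and 267.35, with gaps of 305, 443 and 671 bp. The repeat content of this group was not tested, and without it the highest score of a closely spaced peak was 175.05. The group on chromosome 10 at 80247739 to 80256155 held the narrow peak named above and another of 748 bp (score 67.66), each beside a broad peak.

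Groups made of narrow peaks alone took other forms. On chromosome 1, in a group chosen after its values were seen, 4 narrow peaks lay within 3.52 kb at 83055133 to 83058648. Their widths were 499, 793, 851 and 938 bp, their scores 54.92, 60.98, 99.98 and 71.09, and their gaps 232, 125 and 78 bp, so that peaks covered 87.6% of the span. On chromosome 11, in another group chosen in this way, 4 narrow peaks were spread over 16.96 kb at 99464483 to 99481439 with gaps of 3625 to 5360 bp, and covered 19.3% of it. A dense group of 10 peaks at the start of chromosome 9 (2999835 to 3036760) held no narrow peak, since its widths ran from 1190 to 2321 bp.

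The share of closely spaced peaks varied widely between chromosomes. On chromosome 10, 38 of 126 eligible peaks had a neighbour, or 30.2% (exact interval 22.3 to 39.0), followed by chromosome 15 with 29 of 106, 27.4% (19.1 to 36.9), and chromosome 18 with 20 of 77, 26.0% (16.6 to 37.2). These 3 did not differ beyond their intervals. The lowest autosomal shares were 4 of 118 on chromosome 3, 3.39% (0.931 to 8.45), and 4 of 85 on chromosome 14, 4.71% (1.30 to 11.6). None of the 15 eligible peaks of the X chromosome was closely spaced, and a count of 0 there allows a share of up to 20% by the limit of 3 counts (upper exact bound 21.8%).

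The share did not closely follow the overall density of peaks. Chromosome 19, with 2.06 Tet3 peaks per Mb between its first and last peak, had 5 of 89 eligible peaks closely spaced, 5.62% (exact interval 1.85 to 12.6), whereas chromosome 18, with 1.18 per Mb, had 26.0% (16.6 to 37.2). Over the 18 autosomes the Spearman correlation of the share with peaks per Mb was 0.39. It was 0.19 when only peaks with a gap of 1 kb or less were counted and 0.54 when only those with a longer gap were. All 18 points come from the same library, and both measures rest on the same peaks.

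The mix of gap lengths also differed. Among the 13 autosomes with at least 15 closely spaced peaks, the share with a gap of 1 kb or less ran from 31.6% on chromosome 5 (6 of 19 peaks) to 94.1% on chromosome 1 (16 of 17). Chromosomes 10 and 11 had more peaks with longer gaps, 22 of 38 and 24 of 38. On chromosomes 8, 12, 15 and 18 the short gaps predominated, with 29 of 42, 18 of 23, 22 of 29 and 16 of 20.

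**Figure D4:**
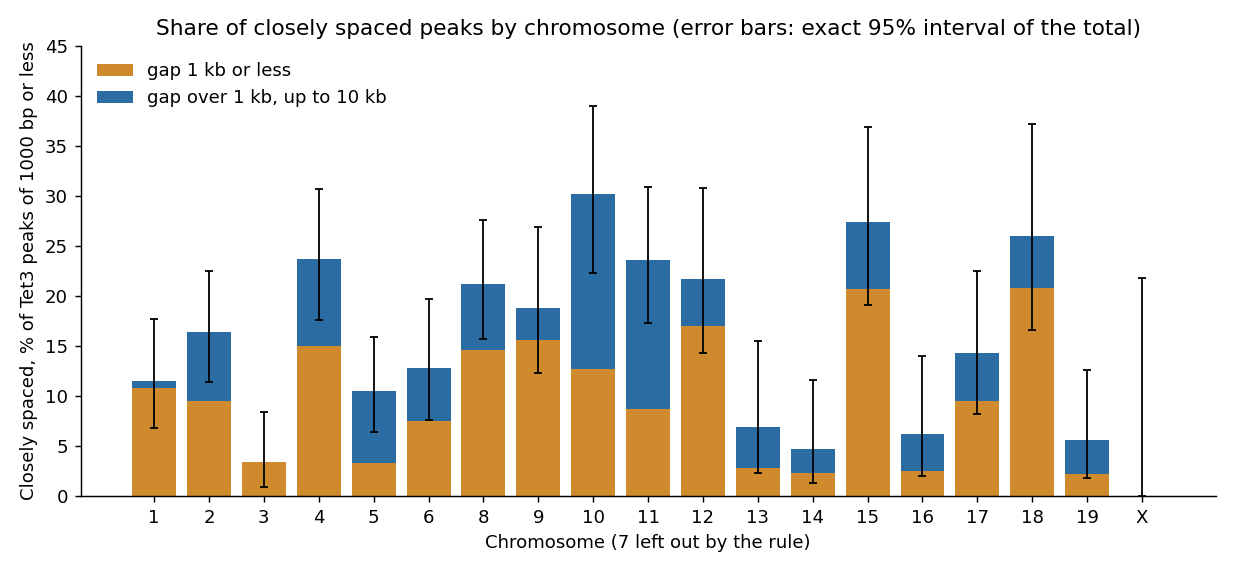
Percentage of Tet3 peaks of 1000 bp or less that are closely spaced, by chromosome, split by a gap of 1 kb or less (orange) and a longer gap (blue), with the exact 95% interval of the total. Chromosome 10 stands highest at 30.2%, chromosome 3 is the lowest autosome at 3.39%, and the X chromosome has none of 15.

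A single stretch supplied most of the closely spaced peaks of chromosome 10. Between 75 and 85 Mb, 34 of 52 eligible peaks had a neighbour, or 65.4%, while on the rest of the chromosome 4 of 74 did, or 5.41%. The stretch was chosen after its values were seen. Its 2 windows of 5 Mb held 16 peaks in 7 groups and 18 peaks in 9 groups, the highest counts of the 463 windows with an eligible peak. In the first of the windows 3 of 16 gaps were 1 kb or less and in the second 11 of 18, so adjoining windows differed in the kind of spacing.

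Other stretches, also chosen after their values were seen, show the range. From 95 to 100 Mb on chromosome 11, 11 of 23 eligible peaks were closely spaced, 2 of them with a gap of 1 kb or less. From 80 to 85 Mb on chromosome 1, 8 of 11 were, all 8 with a gap of 1 kb or less. The chromosome 1 peaks belonged to 4 groups that lay between 82766510 and 83058648, the group of 4 narrow peaks among them, with gaps of 31 to 252 bp. Most of the other windows had few, and of 122 windows with any closely spaced peak 78 held a single group.

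Closely spaced peaks lay in regions with more Tet3 peaks, also when their own group was left out. Within 500 kb they had a median of 3 other Tet3 peaks (2 to 3) and isolated peaks a median of 1 (1 to 1). No other peak in that distance was found for 12.2% (exact interval 9.10 to 16.0) of closely spaced and 26.5% (24.5 to 28.5) of isolated peaks. At the other end, 10 or more were found for 13.0% (9.80 to 16.9) and 3.25% (2.50 to 4.15). These pairs of intervals did not overlap. Without chromosome 10 the medians were 2 and 1, and without chromosome 8 they were the same. The shares were not recomputed without either. The 38 closely spaced peaks of chromosome 10 had a median of 18 other peaks and the 42 of chromosome 8 a median of 5. Most closely spaced peaks with 10 or more lay on these chromosomes, which thus weigh heavily on that share.

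The 2 kinds of gap differed in this respect in degree. Peaks with a gap of 1 kb or less had a median of 2 (2 to 3) other peaks and those with a longer gap a median of 3 (2 to 4), with overlapping intervals. The share without any other peak was 15.9% (exact interval 11.5 to 21.3) and 6.25% (2.90 to 11.5), and the share with 10 or more was 9.91% (6.39 to 14.5) and 18.1% (12.1 to 25.3). Chromosome 10, with its high regional counts, held 16 of the peaks with a short gap and 22 of those with a longer one. Most of the longer-gap peaks with 10 or more other peaks lay on this chromosome, as did many of the short-gap ones. The difference in that share therefore rests largely on chromosome 10. Neither share was recomputed without it, so the differences may not hold elsewhere. Isolated peaks had a higher share without any other peak, 26.5%, and a lower share with 10 or more, 3.25%, than either kind. Chromosome by chromosome, among the 13 autosomes with at least 15 closely spaced peaks, their median was higher than that of isolated peaks on 8, equal on 4 and lower on 1. The highest was 18, on chromosome 10, where isolated peaks had a median of 1.

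**Figure D5:**
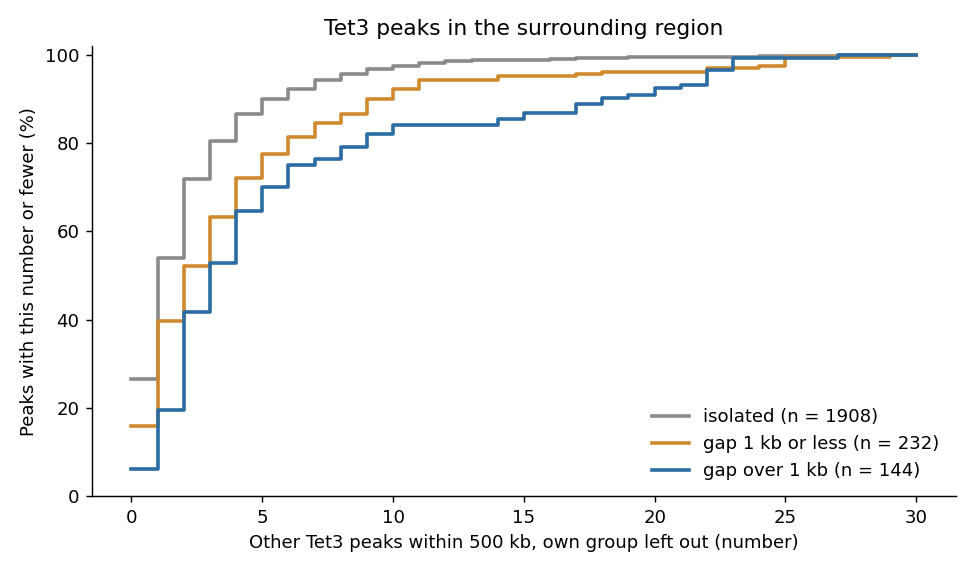
Cumulative percentage of Tet3 peaks by the number of other Tet3 peaks within 500 kb, leaving out each peak's own group, for isolated peaks (grey, n = 1908) and closely spaced peaks with a gap of 1 kb or less (orange, n = 232) or longer (blue, n = 144). At 0 the lines start at 26.5%, 15.9% and 6.25%, so the isolated peaks have the fewest other peaks around them.

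Close spacing was rare in the Input list, which is far shorter. By the same rule 2 of 333 Input peaks were closely spaced, 0.601% (exact interval 0.0728 to 2.15). They were 6938 bp apart, and no Input gap was 1 kb or less. The nearest neighbour of an Input peak was at a median of 1431 kb (1003 to 1615), against 157 kb (143 to 176) for the eligible Tet3 peaks. The difference in list length and the difference between antibody and Input cannot be told apart in these shares.

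Input peaks were also seldom near the closely spaced Tet3 peaks. None of the 376 overlapped an Input peak, which allows a share of up to 0.798% by the limit of 3 counts (upper exact bound 0.976%), and none of the 1908 isolated ones did. At up to 10 kb from Input there were 2 closely spaced peaks, 0.532% (exact interval 0.0645 to 1.91), and 14 isolated ones, 0.734% (0.402 to 1.23). Within 100 kb there were 22, 5.85% (3.70 to 8.72), and 75, 3.93% (3.10 to 4.90). Without chromosome 8, which holds 122 Input peaks, the shares were 3.59% (1.87 to 6.19) and 2.23% (1.59 to 3.03), and on chromosome 8 alone 10 of 42, 23.8% (12.1 to 39.5), and 36 of 156, 23.1% (16.7 to 30.5). All of these intervals overlapped, and none of the 232 peaks with a gap of 1 kb or less lay within 10 kb of an Input peak.

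Scores on the 2 sides of each limit overlapped. Just inside the gap limit were pairs with gaps of 9836 bp on chromosome 12 (scores 88.13 and 59.5), 9682 bp on chromosome 2 (60.04 and 85.14) and 9614 bp on chromosome 17 (70.61 and 90). Just outside were gaps of 10226 bp on chromosome 1 (68.97 and 69.23), 10282 bp on chromosome 8 (51.88 and 56.82) and 10299 bp on chromosome 15 (55.19 and 52.65). The peaks scoring 69.23 and 52.65 still belonged to the set, through nearer neighbours at 170 and 112 bp. The chromosome 12 peak scoring 59.5, just inside, was 1087 bp wide and did not belong to it. These scores thus describe gaps and do not compare the set with other peaks. At the width limit, the widest members measured 997, 994 and 993 bp with scores of 55.38, 77.36 and 76.89. The narrowest neighboured peaks left out for their width measured 1005, 1008 and 1008 bp, with scores of 73.53, 70.03 and 114.83.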

How the data were processed

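1 Tet3 ChIP-seq library and 1 Input library were analysed. Per the submitters' processing notes, Bowtie, MACS and the mm9 build were used. Their versions, the thresholds, the filters and each call's control were not given in the sources used here. Sequencing was on the SOLiD platform after Covaris shearing, per the labels' protocols. The deposited lists give chromosome, start, end, identifier and a score for each peak. The deposited score is the authors' own value, not defined by a header. The other deposited values are start and end positions in bp, and starts are printed here counted from 1. Each list belongs to 1 library.

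Peaks were sorted by position, and gaps (next start minus previous end) were taken over all peaks of a chromosome. Groups join peaks with gaps of at most 10 kb. Regional counts take Tet3 peaks of other groups within 500 kb. Overlap with Input means at least 1 bp. Medians have order-statistic 95% intervals and shares exact Clopper-Pearson ones. No p-value was computed, because there is 1 library per group and the set was chosen from the same call. Procedures were tested on simulated lists. Python 3.11.15, numpy 2.4.6, pandas 2.3.3, scipy 1.17.1 and matplotlib 3.10.9 were used.

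The set, the comparisons and the regions named were chosen with earlier results of these data known. The rule for named regions takes the 3 groups with most peaks, the 10 highest-scoring peaks, the 5 shortest gaps between narrow peaks, the 3 widest partners and the 3 pairs on each side of the gap limit. Alternatives were gap limits of 5 and 20 kb, a width limit of 800 bp, chromosome 7 included, scores of at least 60, omission of 2 dense groups, and 1 peak per group. Leaving out chromosome 8 or 10, longer gaps alone and other division points were added after seeing the data. Genes and sequences at the peaks were not analysed here, since the reference tables at hand are of GRCm38 and not of mm9.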

Additional observations from a re-analysis of the deposited data

How the results depend on the processing

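The depth of the libraries is unknown, so peak numbers cannot be set against reads. Of 119 values recomputed under 10 settings, 96 stayed within their 95% interval or, for counts, within 1.5 times, and the other 23 are given here. A gap limit of 5 kb gave a median gap of 279 bp and 75.6% of gaps at 1 kb or less, and a limit of 20 kb gave 1471 bp and 47.9%, by construction. A width limit of 800 bp gave median widths of 622 bp for closely spaced and 602 bp for isolated peaks and median scores of 60.9 and 59.2. Scores of at least 60 left 148 closely spaced peaks. Their median width was 739 bp, against 717 bp for isolated peaks, and the median scores were 72.4 and 73.3. Keeping the highest-scoring peak of each group left 212, with 34.9% beside a broad partner, a median width of 723 bp and a median score of 69.5. Choosing by score raises the score by construction, and width goes with score. Counting 1 peak per group also raises the broad share, so these values are no comparison with isolated peaks. Without chromosome 8, an Input peak was found within 100 kb of 3.59% of closely spaced and 2.23% of isolated peaks. The 144 peaks with a gap over 1 kb had a median gap of 4680 bp, 29.9% broad partners and a median score of 60.5. Without the dense groups on chromosomes 9 and 2, 374 closely spaced peaks were left. Dividing the peaks at 200 bp, 500 bp or 2 kb of gap gave the same regional medians as 1 kb, 2 for shorter and 3 for longer gaps. No paired analysis was possible because there is only 1 library in either group.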
